A study of Mus musculus with 12 samples.

Results

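Time of day was examined in skeletal muscle labelled as lacking the REV-ERBs, by setting 3 libraries labelled KO at ZT22 against 3 labelled KO at ZT10. These are 6 of the 12 RNA-seq libraries of the study, chosen by their titles, and the other 6 are WT muscle at the same times. The tissue is the tibialis anterior, a fast muscle of the lower leg of the mouse, and the knockout is described as specific to skeletal muscle and as covering the Rev-erbs in the plural. ZT counts hours from lights on, so the sample titles place the samples near the end of the light phase and near the end of the dark phase. The series' design text instead gives ZT0 and ZT12, so the true hour is not settled, and the titles' times serve here as names. The sources used here give no age, sex, strain or driver of the deletion. Replicates are described only as separate samples, so the p-values measure the spread between these samples.

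REV-ERBα and REV-ERBβ, encoded by Nr1d1 and Nr1d2, are nuclear receptors that bind haem and act as transcriptional repressors. In the core clock, BMAL1 (gene Arntl) and CLOCK drive the Per, Cry and Nr1d genes through E-boxes. PER and CRY proteins repress BMAL1 and CLOCK, and the REV-ERBs repress Arntl, competing with the RORs at shared response elements. In muscle the clock and the REV-ERBs are known for their part in fuel choice between glucose and fat, in mitochondrial content and in autophagy.

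Promoters of 4 clock genes are shown because their genes are described below and carry the motifs of the factors just named. Each sequence runs from 250 bases before to 50 bases after the gene's start in RefSeq (GRCm38.p6), read 5′ to 3′ on the gene's strand. Capitals mark the E-box CACGTG, its variant CACGTT and the core of the REV-ERB and ROR element, TAGGTCA, on either strand, so that reverse matches read AACGTG or TGACCTA. Arntl (chr7:113207261-113207560, plus strand) has TAGGTCA at base 281 of the window, Nfil3 (chr13:52980990-52981289, minus strand) has it reversed at base 239, Ciart (chr3:95882179-95882478, minus strand) has CACGTG at bases 135, 193 and 207, and Cry1 (chr10:85185005-85185304, minus strand) has CACGTG at base 191 and the variant at base 172.
Arntl: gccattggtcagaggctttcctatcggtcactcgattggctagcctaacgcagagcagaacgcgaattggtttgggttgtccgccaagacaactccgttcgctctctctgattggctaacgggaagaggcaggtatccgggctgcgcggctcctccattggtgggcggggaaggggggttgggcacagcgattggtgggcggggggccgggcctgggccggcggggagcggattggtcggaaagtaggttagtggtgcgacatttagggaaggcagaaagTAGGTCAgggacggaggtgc
Nfil3: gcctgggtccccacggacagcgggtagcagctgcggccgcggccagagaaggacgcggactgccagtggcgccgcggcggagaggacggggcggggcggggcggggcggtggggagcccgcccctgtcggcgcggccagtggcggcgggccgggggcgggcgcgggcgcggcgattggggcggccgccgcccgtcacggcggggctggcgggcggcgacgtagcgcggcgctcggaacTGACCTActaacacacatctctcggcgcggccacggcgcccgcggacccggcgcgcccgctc
Ciart: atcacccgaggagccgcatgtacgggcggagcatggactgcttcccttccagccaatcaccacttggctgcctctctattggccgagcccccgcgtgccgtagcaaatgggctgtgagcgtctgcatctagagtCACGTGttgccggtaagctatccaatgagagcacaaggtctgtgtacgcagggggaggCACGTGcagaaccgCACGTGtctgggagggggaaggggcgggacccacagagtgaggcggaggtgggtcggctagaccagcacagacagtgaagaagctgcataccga
Cry1: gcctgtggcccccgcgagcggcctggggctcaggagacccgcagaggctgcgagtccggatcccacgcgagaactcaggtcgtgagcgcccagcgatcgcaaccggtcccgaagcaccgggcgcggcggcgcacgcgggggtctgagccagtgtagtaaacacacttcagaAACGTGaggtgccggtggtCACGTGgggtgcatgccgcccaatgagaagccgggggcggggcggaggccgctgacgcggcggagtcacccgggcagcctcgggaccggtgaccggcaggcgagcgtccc
Of 32851 RefSeq windows of this length, 7.15% held CACGTG, 4.68% CACGTT and 2.61% TAGGTCA on either strand. Among 24 clock genes with a window, 8 held CACGTG, 3 CACGTT and 2 TAGGTCA. Here a gene was counted if any of its windows held the motif, so these counts are not directly comparable with the shares of windows. A match of letters is not a measured binding site.

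The targeted genes were looked at first. Nr1d1 read 420.0, 503 and 359 FPKM at ZT10 and 354, 369 and 328 FPKM at ZT22 in the libraries labelled KO, and 37.03, 31.6 and 27.6 FPKM at ZT10 and 52.7, 54 and 37.99 FPKM at ZT22 in the libraries labelled WT. Nr1d1 mRNA was therefore higher in every library labelled KO than in every library labelled WT, which goes against the label at the level of mRNA. Nr1d2 read 36.5, 40.6 and 40.2 FPKM at ZT10 and 38.9, 37.6 and 36.3 FPKM at ZT22 in the libraries labelled KO. In the WT libraries it read 37.5, 42.4 and 43.6 FPKM at ZT10 and 29.7, 28.4 and 29.2 FPKM at ZT22. Its ranges met at ZT10, while at ZT22 every library labelled KO lay above every WT library, which also goes against the label. One value per gene cannot show a deleted exon in a transcript that is still made. Nr1d1 also overlaps exons of Thra on the opposite strand, and the sources used here do not state whether counting used the strand. All directions below belong to libraries labelled KO, whatever their REV-ERB protein content.

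Muscle identity was clear, since the summed level of 8 muscle fibre markers lay between 90010.0 and 126100 FPKM in the KO libraries. Estimated depth was 12.2 to 14.1 per KO library, in units of 1000000 fragments, by a rough method that gives no interval. KO ZT10 replicate 3 was the library farthest from its group, with a median absolute log2 difference of 0.215 and 0.185 from its 2 partners, against 0.131 between those and 0.103 to 0.131 among the ZT22 libraries. The summed FPKM was 532300 to 549400 at ZT10 and 455700 to 463100 at ZT22, and the 10 highest genes took 29.4% to 30.9% of it at ZT10 and 25.4% to 26.6% at ZT22. WT libraries moved the same way. The labels do not say whether the 2 times were prepared or sequenced together, so time and any such batch cannot be told apart.

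Much of the muscle transcriptome differed between the times in the libraries labelled KO. Of 9953 genes whose mean reached 1 FPKM, limma on log2(FPKM + 1) called 4239 at an adjusted p under 0.05, which is 42.6%. The calls comprised 2872 genes higher at ZT22 (28.9%) and 1367 lower (13.7%), and 160 of the former and 57 of the latter differed at least 2-fold. The split depended on the scaling. The median gene stood 0.11 higher at ZT22 on the log2 scale as deposited, -0.019 after median-of-ratios scaling and -0.007 after removal of a trend with transcript length. The respective share of calls that were higher was 67.75%, 45.06% and 48.85%. Genes called in the same direction under all 3 scalings are said here to have held, and comprised 1368 higher genes (13.7%) and 1212 lower genes (12.2%). Below, rose and fell mean higher or lower at ZT22 with a call under the deposited scaling, log2 differences are ZT22 minus ZT10 on log2(FPKM + 1) with the standard error from limma, and p-values are Benjamini-Hochberg adjusted over all genes tested. This scale understates changes of low genes.

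The positive arm of the clock was higher at ZT22. All 5 tested members of the list of activators and RORs rose, against 28.9% of all genes tested. Their libraries did not overlap between the times, against 51.2% of all genes tested. The median of the list was 0.76, against 0.11 over all genes, and 3 of the 5 held. Npas2, a partner of BMAL1 that can replace CLOCK, read 2.9, 2.44 and 2.43 FPKM at ZT10 and 7.38, 7.66 and 6.53 FPKM at ZT22. It rose by 1.19 ± 0.11 (adjusted p = 1.54e-05), a ratio of 2.78 between the means. Clock, the usual partner, read 7.95, 8.08 and 10.6 FPKM at ZT10 and 21.8, 19.7 and 18.5 FPKM at ZT22. It rose by 1.1 ± 0.13 (adjusted p = 7.35e-05), or 2.25-fold. Rora, an activator that shares DNA elements with the REV-ERBs, read 8.1, 7.55 and 9.57 FPKM at ZT10 and 14.1, 13.7 and 17.03 FPKM at ZT22. It rose by 0.76 ± 0.11 (adjusted p = 0.000279). In these 3 genes every ZT22 library lay above every ZT10 library, and all 3 held.

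Arntl, which carries the TAGGTCA shown above, was high at both times in the libraries labelled KO, at 32.97, 36.6 and 41.97 FPKM at ZT10 and 46.8, 44.1 and 49.1 FPKM at ZT22. The groups did not overlap, but the step was small, 0.33 ± 0.11 (adjusted p = 0.0293). It was 0.17 (adjusted p = 0.169) with median-of-ratios scaling and 0.17 (adjusted p = 0.198) once the length trend was removed, so the rise did not hold. Its adjusted p was also 0.108 without KO ZT10 replicate 1, 0.0678 without KO ZT10 replicate 2, 0.0723 without KO ZT22 replicate 1 and 0.0907 without KO ZT22 replicate 3. Without KO ZT22 replicate 3, 3 of the list were called. Rorb was not tested, at 0.01 to 0.03 FPKM in the KO libraries.

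The repressor arm was mixed. Of its 10 members, 2 fell, against 13.7% of all genes tested, and 1 rose, against 28.9%, and these 3 held. With the length trend removed 4 were lower. Ciart, a repressor of BMAL1 and CLOCK whose promoter holds the 3 E-boxes shown, read 11.3, 17.4 and 12.4 FPKM at ZT10 and 6.08, 5.1 and 4.9 FPKM at ZT22. It fell, with a log2 difference of -1.19 ± 0.20 (adjusted p = 0.000509), and its ZT10 mean was 2.56 times its ZT22 mean. Per2 read 2.9, 3.54 and 3.11 FPKM at ZT10 and 2.41, 1.85 and 1.96 FPKM at ZT22 and fell, with a difference of -0.45 ± 0.11 (adjusted p = 0.00572). Both were separated between the times. Cry1, which with PER proteins represses BMAL1 and CLOCK, moved the other way, reading 11.6, 11.1 and 12.4 FPKM at ZT10 and 17.2, 19.2 and 15.6 FPKM at ZT22, and rose by 0.53 ± 0.11 (adjusted p = 0.00264). Per1, Per3, Cry2, Bhlhe40 and Bhlhe41 did not pass, with log2 differences of -0.24, 0.27, 0.029, -0.32 and 0.15. Removing the length trend turned Per3 to -0.14, Cry2 to -0.15 and Bhlhe41 to -0.053, while without KO ZT10 replicate 2 Per3 passed as higher (0.42, adjusted p = 0.0392). Nr1d1 itself differed by -0.27 ± 0.15 (adjusted p = 0.164) and Nr1d2 by -0.053 ± 0.077 (adjusted p = 0.607). Nr1d1 passed, as lower at ZT22, under both other scalings (-0.43 in each, adjusted p = 0.0408 for median-of-ratios and 0.0437 for length), and Nr1d2 with the length trend removed (-0.21, adjusted p = 0.0388).

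None of the 4 genes of the PAR bZIP factors Dbp, Tef and Hlf and their antagonist Nfil3 passed in the deposited scaling, while 2 had an unadjusted limma p under 0.05. As lower genes, 3 passed after median-of-ratios scaling, 1 with the length trend removed and 2 with both. Dbp, an activator of D-box genes, read 129, 148 and 80.1 FPKM at ZT10 and 89.3, 80.2 and 86.5 FPKM at ZT22. Replicate 3 at ZT10 lay just below the 3 ZT22 libraries and the other two ZT10 libraries above them, and the difference was -0.43 ± 0.17 (adjusted p = 0.0574); without that library it was -0.69 (adjusted p = 0.000233), and after median-of-ratios scaling -0.59 (adjusted p = 0.0195). Nfil3, a D-box repressor whose promoter also holds TAGGTCA, read 108, 102 and 109.8 FPKM at ZT10 and 56.8, 87.5 and 50.1 FPKM at ZT22. Its times did not overlap, yet the difference of -0.75 ± 0.29 missed the threshold (adjusted p = 0.051), passed under both other scalings (adjusted p = 0.0194 for median-of-ratios and 0.0343 for length), and passed without KO ZT22 replicate 2 (adjusted p = 0.0243) and with only the 6 KO libraries (0.0193). Tef differed by -0.16 and passed as lower on median-of-ratios values (-0.31, adjusted p = 0.0249) and with both corrections (-0.30, 0.0362). Hlf differed by 0.46 and passed as higher without KO ZT10 replicate 1 (0.66, adjusted p = 0.0494).

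Among 9 genes that are rhythmic in most tissues, 5 fell and 1 rose, or 55.6% and 11.1% against 13.7% and 28.9% of all genes tested, and the 5 falls held. Tspan4, a tetraspanin with 1 CACGTG in its window, read 8.77, 9.02 and 9.05 FPKM at ZT10 and 3.84, 3.51 and 3.32 FPKM at ZT22. It fell, with a difference of -1.13 ± 0.080 (adjusted p = 7.42e-06). Tsc22d3, a glucocorticoid-induced leucine zipper gene, fell from 64.02 ± 12.3 FPKM at ZT10 to 35.3 ± 2.1 FPKM at ZT22 (mean ± SD, n = 3, as in all pairs of means below), and Por, the electron donor of cytochromes P450, from 16.1 ± 5.82 FPKM at ZT10 to 8.43 ± 1.51 FPKM at ZT22. Their log2 differences were -0.83 ± 0.17 (adjusted p = 0.00198) and -0.82 ± 0.19 (adjusted p = 0.00427). Usp2, a deubiquitinase, and Wee1, a cell cycle kinase, fell by less, with differences of -0.38 (adjusted p = 0.032) and -0.38 (adjusted p = 0.0406). Usp2 lost its call without KO ZT10 replicate 1 (adjusted p = 0.085), KO ZT10 replicate 2 (0.0913) or KO ZT22 replicate 3 (0.128). Wee1 lost it in 5 such fits, at 0.0801, 0.0599 and 0.0915 without KO ZT10 replicates 1, 2 and 3 and at 0.166 and 0.0643 without KO ZT22 replicates 1 and 2. Without KO ZT10 replicate 1 or 2, or with only the 6 KO libraries, 3 of the 9 fell. Nampt, the rate-limiting enzyme of NAD salvage, rose by 0.34 ± 0.076 (adjusted p = 0.00383), which did not hold (0.038 with the length trend removed).

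**Figure D1:**
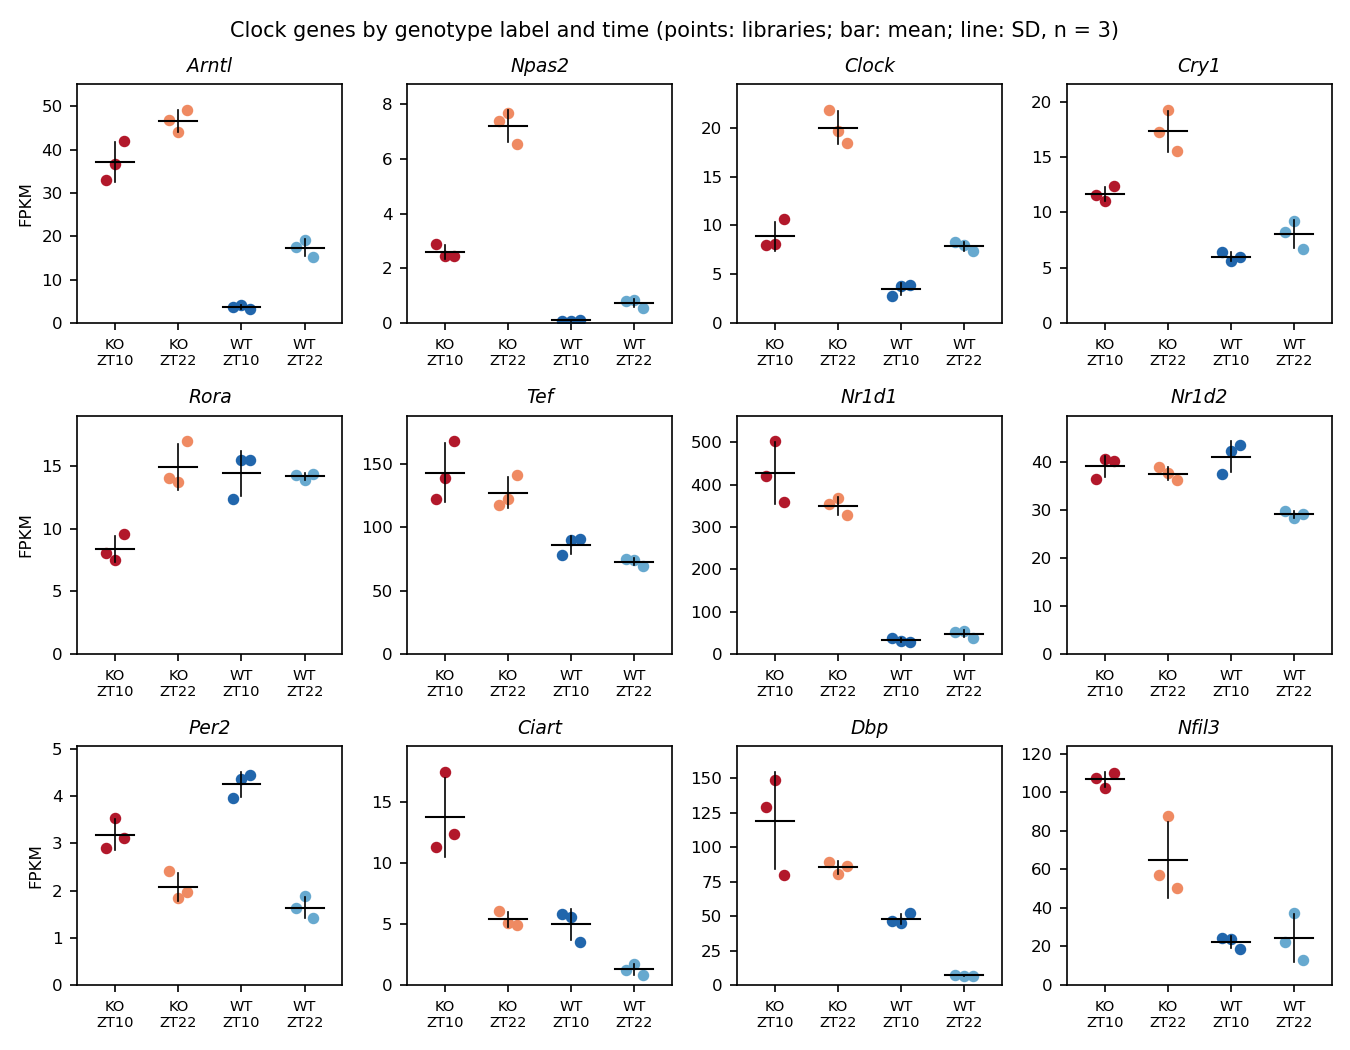
FPKM of 12 clock genes in each library, by genotype label and time; points are libraries, the bar is the mean and the line the SD (n = 3). Npas2, Clock and Cry1 sit higher at ZT22 and Ciart and Per2 lower in libraries labelled KO, while Arntl stays between 32.97 and 49.1 FPKM there and between 3.32 and 19.2 FPKM in WT.

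Whether the time difference itself differed between the labels was tested in the same fit. In WT, 2404 genes were called between the times (24.2%). Of the 4239 KO calls 43.55% were also called in WT, and of the WT calls 76.79% were also called in KO; of the 1846 genes called in both, 1832 had the same direction. The time difference differed between the labels for 4 genes (0.0402%), against 1696 at an unadjusted p under 0.05. That count ranged from 2 to 77 when 1 library was left out, with 77 without WT ZT10 replicate 1, 68 without KO ZT10 replicate 1, 47 without KO ZT10 replicate 3, 18 without WT ZT22 replicate 3, and 2 without WT ZT10 replicate 2 or 3, KO ZT10 replicate 2, WT ZT22 replicate 1 or KO ZT22 replicate 1. A gene called only in one label is thus not shown to differ between them.

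Arntl and Dbp were among those 4. Arntl (chr7:113207465-113314126 in GRCm38) read 3.63, 4.09 and 3.32 FPKM at ZT10 and 17.6, 19.2 and 15.3 FPKM at ZT22 in WT, a difference of 1.97 ± 0.11 (adjusted p = 2.48e-06). KO minus WT was -1.64 ± 0.15 (adjusted p = 0.0012). Dbp (chr7:45705088-45710203) read 46.6, 45.01 and 51.9 FPKM at ZT10 and 7.57, 6.72 and 6.62 FPKM at ZT22 in WT, a difference of -2.62 ± 0.17 (adjusted p = 6.45e-06), and KO minus WT was 2.18 ± 0.24 (adjusted p = 0.00399). For both genes the time difference was larger in size in WT, and their level in libraries labelled KO exceeded that in every WT library at either time. Both kept the call in every alternative run and without any 1 of the 12 libraries. Exons of Dbp overlap Sphk2 on the opposite strand.

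Slc38a10, of the sodium-coupled amino acid transporter family, was lower at ZT22 in KO and higher in WT. It lies at chr11:120103960-120151346 and read 23.8, 28.1 and 27.2 FPKM at ZT10 and 14.3, 13.3 and 17.6 FPKM at ZT22 in KO, a difference of -0.77 ± 0.11 (adjusted p = 0.000203), and 11.2, 12.1 and 12.04 FPKM at ZT10 and 14.3, 16.7 and 14.1 FPKM at ZT22 in WT, a difference of 0.33 ± 0.11 (adjusted p = 0.0454). KO minus WT was -1.1 ± 0.15 (adjusted p = 0.023). Gpcpd1, a glycerophosphocholine phosphodiesterase at chr2:132529082-132587729, moved the opposite way, reading 123, 114 and 107 FPKM at ZT10 and 146, 154 and 160.1 FPKM at ZT22 in KO (0.42 ± 0.11, adjusted p = 0.0099) and 159, 188 and 203 FPKM at ZT10 and 114, 93.7 and 124 FPKM at ZT22 in WT (-0.72 ± 0.11, adjusted p = 0.00117). The KO call of Gpcpd1 did not hold, at 0.27 (adjusted p = 0.117) after median-of-ratios scaling, 0.22 (0.171) with the length trend removed and 0.19 (0.242) with both. Its KO minus WT difference was 1.15 ± 0.16 (adjusted p = 0.023), with an adjusted p of 0.0771 after median-of-ratios scaling and 0.0518 with both corrections. The KO minus WT call of each gene was lost in 7 of the 12 fits that left out 1 library. For both genes these were the fits without WT ZT10 replicate 2 (0.106 for both) or 3 (0.0801 for both), KO ZT10 replicate 2 (0.0854 for both), WT ZT22 replicate 1 (0.0759 for both), KO ZT22 replicate 1 (0.117 and 0.0871) and KO ZT22 replicate 2 (0.0807 for both). The seventh fit was without WT ZT22 replicate 2 for Slc38a10 (0.0744) and without KO ZT22 replicate 3 for Gpcpd1 (0.0971).

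**Figure D2:**
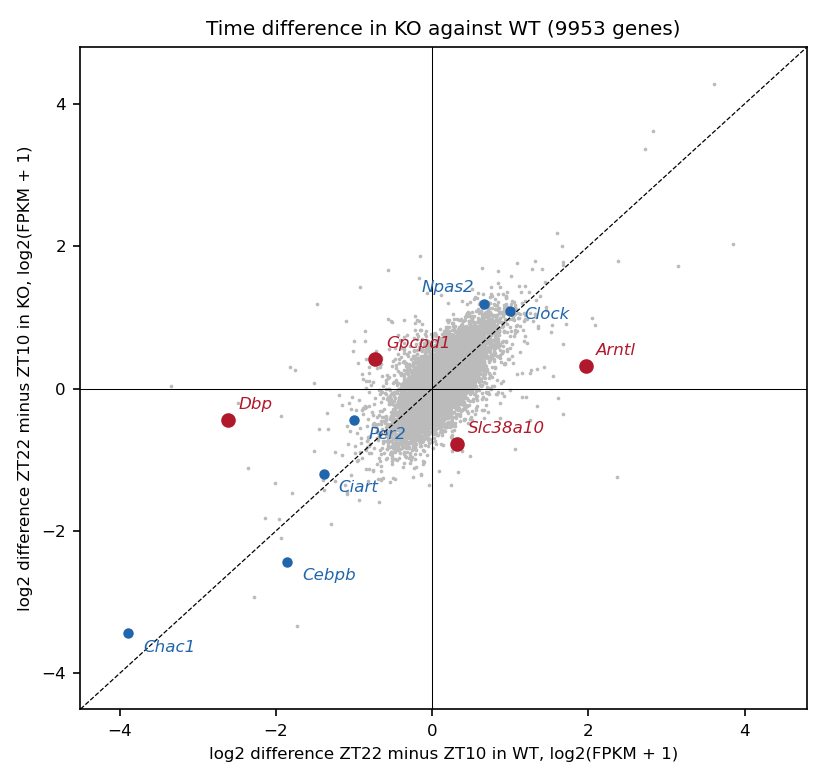
Log2 difference ZT22 minus ZT10 in KO (vertical) against WT (horizontal) for 9953 genes, on log2(FPKM + 1); the dashed line marks equal differences. Arntl, Dbp, Slc38a10 and Gpcpd1 (red) are the genes whose time difference differed between the labels, and Chac1, Cebpb, Ciart, Per2, Npas2 and Clock (blue) are examples with no such call.

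The strongest falls were those of Chac1, Angptl4 and Arrdc2. Chac1, which degrades glutathione and is induced by ATF4, read 28.3, 41.8 and 35.98 FPKM at ZT10 and 1.2, 3.69 and 2.57 FPKM at ZT22. It fell to a level 14.2 times lower (-3.43 ± 0.25, adjusted p = 7.64e-06), and every library of either label at ZT10 lay at least 4-fold above every library at ZT22. Angptl4, a fasting-induced inhibitor of lipoprotein lipase, read 21.2, 41.6 and 89.9 FPKM at ZT10 and 4.84, 5.43 and 1.24 FPKM at ZT22. It fell, with a difference of -3.33 ± 0.52 (adjusted p = 0.000364). Arrdc2, an α-arrestin, read 38.6, 63.4 and 86.1 FPKM at ZT10 and 4.65, 10.1 and 7.11 FPKM at ZT22, a difference of -2.92 ± 0.28 (adjusted p = 2.49e-05). No overlap between the times was a condition for entering the strongest falls and rises named here, so it adds no support to them.

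Cebpb, Ucp3, Cebpd and Pdk4 were also among the 12 strongest. Cebpb, a bZIP factor induced by cAMP and glucocorticoids, read 42.1, 49.9 and 79.9 FPKM at ZT10 and 8.68, 10.6 and 9.1 FPKM at ZT22 and fell (-2.43 ± 0.19, adjusted p = 8.09e-06). Its relative Cebpd fell 4.39 times (-1.84 ± 0.37, adjusted p = 0.00179). Ucp3, a mitochondrial carrier induced by fatty acids, read 96.7, 124 and 153 FPKM at ZT10 and 47.4, 19.3 and 23.4 FPKM at ZT22 and fell (-2.1 ± 0.30, adjusted p = 0.000208). Pdk4, the kinase that shuts off pyruvate dehydrogenase in fasting, read 483, 1032 and 920.3 FPKM at ZT10 and 348, 166 and 179.6 FPKM at ZT22 and fell (-1.82 ± 0.39, adjusted p = 0.00276). Pfkfb3, which makes the activator of phosphofructokinase, fell 3.25 times (adjusted p = 0.000943), and Klhl38, a muscle kelch protein, 2.54 times (adjusted p = 0.00475). The named falls also included Tmem160, a membrane protein, Hist1h4h, a histone H4 gene, and Rps21, a ribosomal protein, with differences of -1.56, -1.48 and -1.9, and all 12 held. Cebpb and Cebpd were lower at ZT22 in WT as well, with differences of -1.85 (adjusted p = 0.000112) and -1.96 (adjusted p = 0.0031).

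The strongest rises included copies of ribosomal protein genes, which are uncertain. Rpl31-ps12, a processed pseudogene, read 0, 0.27 and 1.39 FPKM at ZT10 and 22.2, 37.4 and 24.2 FPKM at ZT22, and Rpl37rt, a transcribed processed pseudogene, read 0, 0 and 0.46 FPKM at ZT10 and 12.1, 17.8 and 10.2 FPKM at ZT22. Their parent genes Rpl31 and Rpl37 fell, with log2 differences of -0.56 and -0.53. Reads of near-identical copies can be assigned to either, so these values may not be separate genes' levels. The same separation of times, at least 4-fold in all 12 libraries of both labels, was found for Gm4184 and LOC100862468, and no other gene was higher at ZT22 by that measure. Rpl34-ps1, another such copy, went from 0.607 ± 0.358 FPKM at ZT10 to 4.33 ± 1.002 FPKM at ZT22.

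Among other rises, Zfp652, a zinc finger repressor, read 7.16, 6.35 and 8.03 FPKM at ZT10 and 28.7, 25.9 and 27.6 FPKM at ZT22. It rose by 1.8 ± 0.20 (adjusted p = 6.22e-05), but its exons overlap Phospho1 on the same strand and Abi3 on the other. Samd4, an RNA-binding translational repressor, read 4.83, 6.41 and 7.92 FPKM at ZT10 and 21.7, 21.99 and 23.9 FPKM at ZT22 and rose by 1.69 ± 0.24 (adjusted p = 0.000219). Pik3r1, the regulatory subunit of phosphoinositide 3-kinase, read 3.07, 3.59 and 11.4 FPKM at ZT10 and 16.9, 20.5 and 15.1 FPKM at ZT22, with KO ZT10 replicate 3 above its partners, and rose by 1.58 ± 0.31 (adjusted p = 0.00165). Lnpep, the aminopeptidase that travels with GLUT4, rose 3.44-fold (adjusted p = 0.0013), Mob1b of the Hippo pathway 3.94-fold (adjusted p = 6.15e-05), Elk4 of the ETS factors 4.36-fold (adjusted p = 8.74e-05) and Cnbd2 6.12-fold (adjusted p = 9.07e-06). Zbed6, a repressor of Igf2, rose 4.72-fold (adjusted p = 0.00021), but its sequence lies within Zc3h11a on the same strand, which itself rose by 0.46. S100a8, a neutrophil protein, was listed at 0 in the 3 ZT10 libraries and at 3.18, 3.17 and 1.78 FPKM in those at ZT22. All 12 rises held. S100a8, Rpl31-ps12, Rpl37rt and Rpl34-ps1 were at or near 0 in KO at ZT10, and other libraries brought their means to the 1 FPKM filter. A change of scaling could hardly undo calls of this kind, so for these genes holding adds no support.

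**Figure D3:**
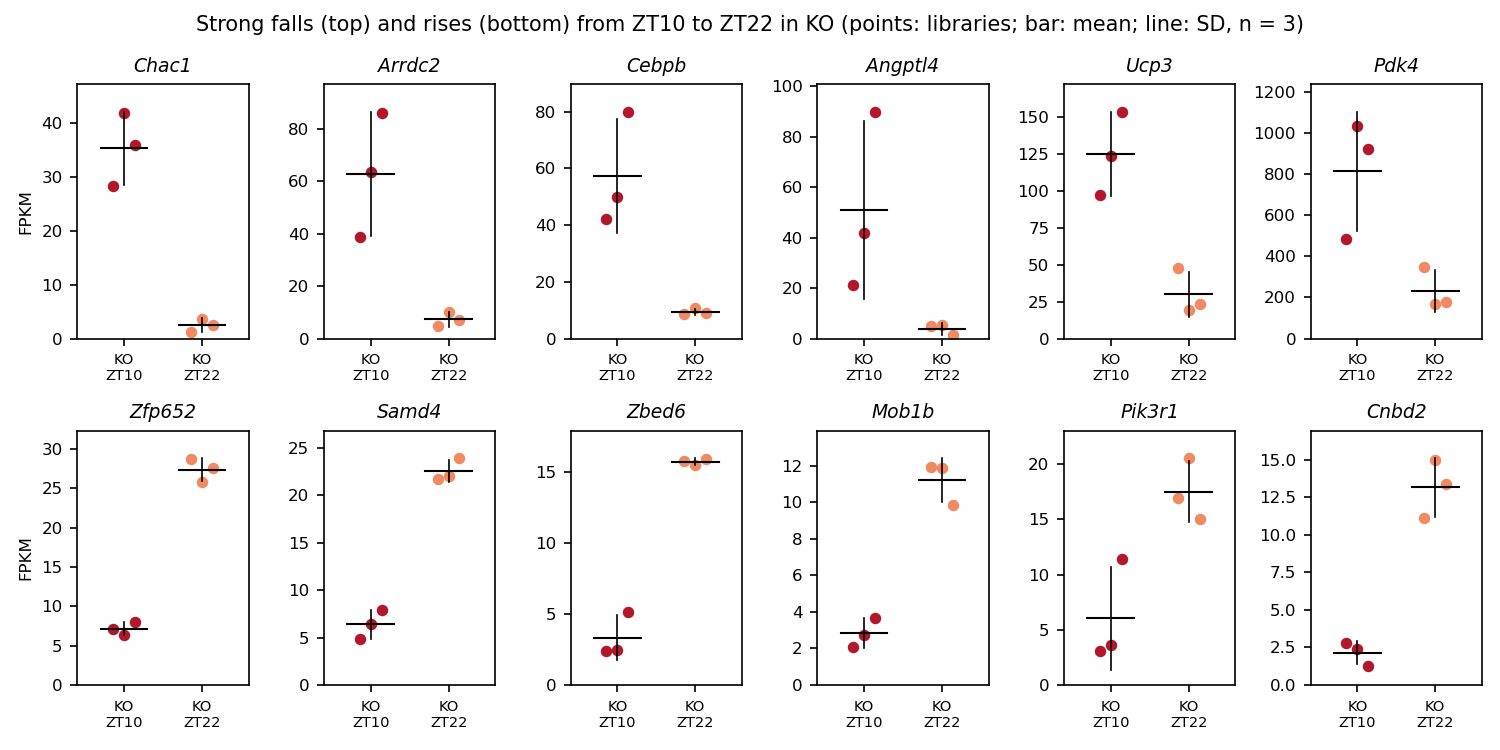
FPKM of 6 genes that fell (top) and 6 that rose (bottom) from ZT10 to ZT22 in libraries labelled KO; points are libraries, the bar is the mean and the line the SD (n = 3). The genes were chosen among those whose times do not overlap, so the separation shown was fixed by the choice. KO ZT10 replicate 3 is the highest ZT10 library for Angptl4 (89.9 FPKM) and Pik3r1 (11.4 FPKM).

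In the glucocorticoid, fasting and atrophy lists falls outnumbered rises. Of 16 glucocorticoid-responsive genes, 7 fell (43.75%, against 13.7% of all genes tested) and 1 rose (6.25%, against 28.9%), and all 8 held; the median was -0.31. With only the 6 KO libraries 4 of them fell. The falls included Cebpb, Cebpd and Nfkbia, the inhibitor of NF-κB (17.5 ± 2.06 FPKM at ZT10 and 7.03 ± 1.796 FPKM at ZT22, adjusted p = 7.83e-05). The rise was Fkbp5, the cochaperone that dampens the glucocorticoid receptor, which went from 7.78 ± 2.42 FPKM at ZT10 to 16.2 ± 4.42 FPKM at ZT22 (adjusted p = 0.00287). Of 20 tested fasting and PPAR targets, 8 fell (40.0%) and 1 rose (5.0%), against 13.7% and 28.9% of all genes tested. All of these held, and the median was -0.18. Without KO ZT10 replicate 3, 4 rose, and without KO ZT10 replicate 1 or 2, 2 did. The rise was Lpin1, a phosphatidate phosphatase, from 68.1 ± 20.2 FPKM at ZT10 to 118 ± 22.01 FPKM at ZT22 (0.81 ± 0.17, adjusted p = 0.00272). Of 12 atrophy genes, 3 fell (25.0%, against 13.7% of all genes tested) and held. They were Trim63, the MuRF1 ubiquitin ligase (246 ± 64.2 FPKM at ZT10 and 105 ± 44.8 FPKM at ZT22, adjusted p = 0.00348), Sesn1 (-0.54) and Fbxo31 (-0.40). In other fits 5 fell without KO ZT22 replicate 3 or after median-of-ratios scaling, and 7 with the length trend removed. Fbxo32, which encodes atrogin-1, read 128, 181 and 164 FPKM at ZT10 and 54.99, 95.1 and 166 FPKM at ZT22 and did not pass (adjusted p = 0.0725). Among 21 immediate early genes 3 fell and held and 1 rose, so the share lower, 14.3%, was near the 13.7% over all genes, and without KO ZT22 replicate 1 only 1 fell. The falls included Cyr61, a matrix protein, at 36.6, 52.99 and 95.5 FPKM at ZT10 and 25.02, 18.7 and 22.03 FPKM at ZT22 (-1.35 ± 0.26, adjusted p = 0.00154).

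Genes of glucose breakdown were lower at ZT22. Among 24 genes for glucose uptake and glycolysis there were 14 falls, against 13.7% of all genes tested, and 1 rise, and 12 falls held, with a median of -0.39 against 0.11 over all genes. Aldoa, an aldolase, read 15492, 13719 and 13930.4 FPKM at ZT10 and 8736, 8819 and 9332 FPKM at ZT22. Ldha, lactate dehydrogenase, read 1518, 1407 and 1658 FPKM at ZT10 and 1036, 1017 and 952 FPKM at ZT22. Eno1, an enolase, read 43.6, 46.5 and 48.4 FPKM at ZT10 and 28.7, 25.7 and 32.6 FPKM at ZT22. The times were apart for all 3, with differences of -0.68 ± 0.093 (adjusted p = 0.000182), -0.61 ± 0.085 (adjusted p = 0.000201) and -0.66 ± 0.090 (adjusted p = 0.00018). Hk2, the hexokinase of muscle, fell by 0.52, and Slc2a4, the GLUT4 transporter, differed by -0.10 and did not pass. The genes for pyruvate entry into mitochondria, Mpc1 and Mpc2, fell, with differences of -0.51 and -0.89, and Pdp1, which reactivates pyruvate dehydrogenase, rose by 0.43.

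In insulin signalling rises outnumbered falls. Of its 20 genes, 10 rose and 1 fell, against 28.9% of all genes higher and 13.7% lower, and 6 rises held. The median was 0.35, or 0.068 with the length trend removed, and the median transcript length of the list was 2876.5 nt. Insr, the insulin receptor, read 8.7, 8.69 and 11.97 FPKM at ZT10 and 22.5, 20.5 and 22.5 FPKM at ZT22 and rose by 1.09 ± 0.14 (adjusted p = 0.0001). Irs1, its docking substrate, read 5.89, 3.17 and 3.52 FPKM at ZT10 and 12.7, 18.6 and 8.36 FPKM at ZT22 and rose by 1.43 ± 0.25 (adjusted p = 0.000807). Pdpk1, which phosphorylates AKT, rose by 1.05 ± 0.15 (adjusted p = 0.000202). All 3 held and were apart. In glycogen metabolism 5 of 16 rose and 2 fell, or 31.25% and 12.5% against 28.9% and 13.7% of all genes, with 2 of each held, and 3 rose without KO ZT10 replicate 2, KO ZT22 replicate 2 or KO ZT22 replicate 3. Ugp2, which makes UDP-glucose, went from 171 ± 34.4 FPKM at ZT10 to 286 ± 34.2 FPKM at ZT22 (adjusted p = 0.00204), and Phkb, a subunit of phosphorylase kinase, from 70.3 ± 15.4 FPKM at ZT10 to 117 ± 2.45 FPKM at ZT22 (adjusted p = 0.00106). Gsk3b, a kinase of glycogen synthase and clock proteins, rose by 0.93 ± 0.14 (adjusted p = 0.000242).

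Mitochondrial energy genes were among the most often lower. Of 80 tested nuclear genes of the respiratory chain, 52 fell, against 13.7% of all genes, and 2 rose, 49 falls held, and the median was -0.48, or -0.39 with the length trend removed. Ndufa2 of complex I read 198, 212 and 187 FPKM at ZT10 and 84.03, 77.3 and 85.6 FPKM at ZT22 and fell (-1.26 ± 0.093, adjusted p = 7.64e-06). Cox4i1 of complex IV read 929, 999.9 and 980.2 FPKM at ZT10 and 516, 532 and 487 FPKM at ZT22 and fell (-0.92 ± 0.077, adjusted p = 1.18e-05). Atp5j2 of ATP synthase read 846, 882 and 990.4 FPKM at ZT10 and 425, 417 and 377 FPKM at ZT22 and fell (-1.15 ± 0.10, adjusted p = 1.18e-05). In WT, 30 of the 80 fell and 1 rose, with a median of -0.20, and no member was among the 4 called in the test between the labels, a count that depended on single libraries as given above. In the tricarboxylic acid cycle 5 of 15 fell (33.3%) and 1 rose (6.7%), against 13.7% and 28.9% of all genes tested. Of the falls 4 held, among them Cs, citrate synthase (-0.39), and Idh3a of isocitrate dehydrogenase (-0.34). The falls numbered 13 after median-of-ratios scaling, 8 without KO ZT10 replicate 1, 3 without KO ZT10 replicate 2 or KO ZT22 replicate 3, and 2 with only the 6 KO libraries, where Cs lost its call (adjusted p = 0.0607). Haem genes gave 6 falls of 12, all held, including Alad and Urod of haem synthesis (-0.72 and -0.54). Erythroid markers summed to 470.0 to 764 FPKM at ZT10 and 301 to 387 FPKM at ZT22 with none of 3 called by limma and 1 at an unadjusted p under 0.05, and 1 was called lower with only the 6 KO libraries or after median-of-ratios scaling; their part in the haem counts was not tested. Of 22 genes of mitochondrial biogenesis and dynamics 8 rose and 4 fell, or 36.4% and 18.2% against 28.9% and 13.7% of all genes, with 3 and 4 held. Esrra, the nuclear receptor ERRα, fell by 0.58, and Ppara rose by 0.63; 5 of the list rose without KO ZT22 replicate 1.

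Ribosomal protein genes were also lower. Of 80 cytosolic ribosomal proteins, 48 fell (60.0%, against 13.7% of all genes tested) and 1 rose, 43 falls held (12.2% of all genes did), and the median was -0.35. Rpl13 went from 451 ± 35.5 FPKM at ZT10 to 228 ± 8.75 FPKM at ZT22 (adjusted p = 1.28e-05), and Rps9 from 394 ± 15.1 FPKM at ZT10 to 223 ± 14.2 FPKM at ZT22 (adjusted p = 2.79e-05). Rps21 read 414, 428 and 375 FPKM at ZT10 and 99.98, 106 and 117 FPKM at ZT22, the strongest fall of the list. Many of these genes have processed copies that can share reads, as above, so single members are uncertain. Of 77 mitochondrial ribosomal proteins, 39 fell (50.65%) and 1 rose, 37 falls held, and the median was -0.26. Mrps34 and Mrps28 of the small subunit fell, with differences of -1.14 and -0.95; exons of Mrps34 overlap Nme3 on the same strand. The proteins of both ribosomes and of the respiratory chain have short transcripts, with list medians of 712.75 nt, 1056 nt and 681.5 nt, and short transcripts as a class were lower at ZT22.

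The counts of proteasome and autophagy genes depended on the scaling. Of 37 proteasome subunits 10 rose (27.0%, near the 28.9% over all genes tested) and 8 fell (21.6%, against 13.7%), with 4 and 8 held, and after median-of-ratios scaling 4 were higher and 12 lower. Psmd1 of the regulatory particle rose by 0.47 and Psmb5, a catalytic subunit, fell by 0.52. In autophagy 6 of 31 rose (19.35%) and 7 fell (22.6%), with 2 and 6 held. After median-of-ratios scaling 3 were higher and 13 lower, and with both corrections 11 were lower. The list includes Map1lc3a, the LC3A protein of the autophagosome membrane (-0.67), and Atg5, needed to attach it (0.51). In branched-chain amino acid breakdown 8 of 24 fell (33.3%) and 7 held, including Bcat2, the mitochondrial transaminase (61.3 ± 5.48 FPKM at ZT10 and 38.8 ± 3.903 FPKM at ZT22, adjusted p = 0.000174); none rose, and without KO ZT10 replicate 3, 4 did. With only the 6 KO libraries 5 fell. Slc7a8 and Slc7a2, amino acid transporters, rose by 0.92 and 0.73. In the ATF4 list, where Chac1 fell, 5 of 10 rose, against 28.9% of all genes, and 2 rises held, while 13.7% of all genes held as higher. The 2 were Ddit3, the CHOP factor (0.99), and Ppp1r15a, a phosphatase subunit (0.83). In the list 3 rose without KO ZT10 replicate 1 or 2 or KO ZT22 replicate 3, or with only the 6 KO libraries. Asns, Psat1, Trib3 and Slc7a5 of the same response were below the filter, and each had its highest KO value in KO ZT10 replicate 3, at 2.12, 3.21, 2.44 and 2.60 FPKM.

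Some contractile and calcium genes were lower at ZT22, and Myh4 was not among them. Of 22 sarcomere genes 5 fell (22.7%, against 13.7% of all genes) and none rose, with 4 held. Tnnc2, fast troponin C, read 14305, 13129.7 and 13822 FPKM at ZT10 and 9415, 10044 and 9357 FPKM at ZT22, and Actn3, the fast-fibre α-actinin, fell by 0.44. Myh4, the fastest myosin, read 9284, 10433 and 9414 FPKM at ZT10 and 9809.5, 9299 and 10306 FPKM at ZT22 and did not pass. Of 20 calcium-handling genes 8 fell (40.0%) and 2 rose, with 7 falls held; with only the 6 KO libraries 5 fell. Cacna1s, the voltage sensor of excitation and contraction, read 577, 628 and 596 FPKM at ZT10 and 374, 361 and 397 FPKM at ZT22 and fell (-0.67 ± 0.081, adjusted p = 9.23e-05). Atp2a1, the SERCA1 pump, fell by 0.46. Tcap, the titin cap, read 5356, 5443 and 6719.5 FPKM at ZT10 and 2507, 2474 and 2516 FPKM at ZT22 and fell (-1.22 ± 0.10, adjusted p = 1.02e-05). It was the 1 fall in a list of 12 myogenic genes (8.3%, against 13.7% of all genes). Of that list 4 rose (33.3%, near the 28.9% over all genes), among them Six4 and Mef2a (0.80 and 0.44). Ache, the acetylcholinesterase, fell by 0.70.

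The share of chaperone genes called higher lay near that over all genes tested. Of 24 heat shock genes 8 rose (33.3%, against 28.9%) and none fell. Only 2 held (13.7% of all genes did), namely Chordc1 and Dnaja1 (0.81 and 0.86), and 4 or 5 rose without KO ZT10 replicate 2 (5), KO ZT22 replicate 1 (5) or KO ZT22 replicate 2 (4). After median-of-ratios scaling 3 of them were higher and 2 lower. Of 8 corepressor genes with Thra 3 rose (37.5%, against 28.9% of all genes) and held, while 13.7% of all genes held as higher. Among them was Ncor1, the corepressor recruited by the REV-ERBs (18.6 ± 0.511 FPKM at ZT10 and 31.1 ± 0.484 FPKM at ZT22, adjusted p = 7.85e-05). Of 9 clock kinases and ubiquitin ligases 5 rose (55.6%, against 28.9% of all genes) and 3 held, while 13.7% of all genes held as higher. The cold-inducible genes gave 0 calls of 2 by limma and 0 at an unadjusted p under 0.05, and Rbm3 differed by 0.19. In the remaining lists each direction held for at most 4 genes, while 12.2% of all genes held as lower and 13.7% as higher. Falls held for 4 of 16 ion channel, 3 of 12 pyruvate dehydrogenase, 3 of 13 acetylcholine receptor and synapse, and 3 of 16 NAD genes. Rises held for 1, 2, 0 and 0 of these. Without KO ZT22 replicate 2, falls numbered 2 among the ion channel genes and 1 among the acetylcholine receptor and synapse genes.

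**Figure D4:**
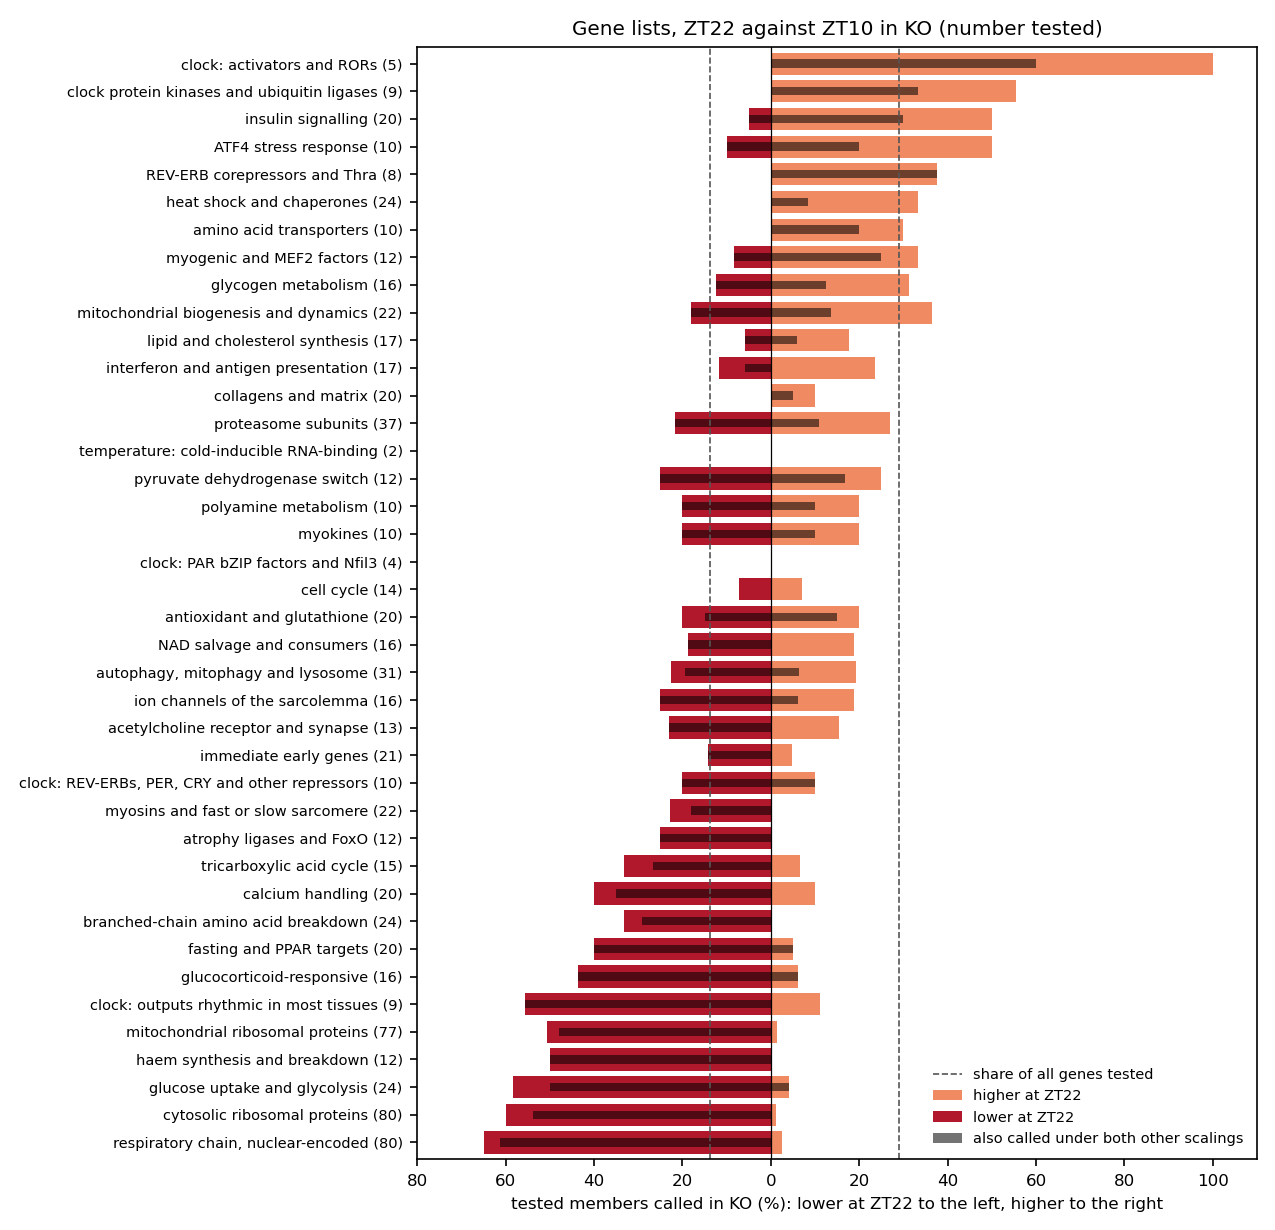
Share of tested members of each gene list called lower (left) or higher (right) at ZT22 in libraries labelled KO; dark bars mark those also called under both other scalings and dashed lines the shares over all genes tested, 13.7% lower and 28.9% higher. Respiratory chain, ribosomal and glycolytic genes lie far to the left, and insulin signalling lies to the right, where the shares shrink under the other scalings.

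Markers of some cell types moved with time, and those of others were not called. Endothelial markers summed to 48.4 to 67.3 FPKM at ZT10 and 88.7 to 102 FPKM at ZT22. Of these 5 of 6 rose, against 28.9% of all genes tested, and 4 held, against 13.7%. In WT 5 of 6 also rose. The median transcript length of the list was 3834.25 nt, and among all genes of 3744 to 4825 nt 40.16% were called higher in KO. Kdr, the VEGF receptor, read 4.61, 5.78 and 6.04 FPKM at ZT10 and 11.9, 13.01 and 9.69 FPKM at ZT22 and rose by 0.95 ± 0.13 (adjusted p = 0.000207). Muscle fibre markers summed to 120400 to 126100 FPKM at ZT10 and 90010.0 to 94950.0 FPKM at ZT22. Of these 4 of 8 fell, against 13.7% of all genes tested. Acta1, skeletal actin, read 34558, 32613 and 39610.4 FPKM at ZT10 and 17416, 19356 and 20031 FPKM at ZT22, and Ckm, the muscle creatine kinase, fell by 0.73. Adipocyte markers summed to 20.02 to 37.9 FPKM at ZT10 and 9.35 to 17.5 FPKM at ZT22. Here 2 of 4 fell (Cfd and Retn), against 13.7% of all genes tested. Only 1 fell without KO ZT10 replicate 2 or 3, without KO ZT22 replicate 2 or 3, or with only the 6 KO libraries. Neutrophil markers summed to 0.52 to 1.45 FPKM and 5.88 to 9.24 FPKM, and 1 of 2 rose, against 28.9% of all genes tested. Of the slow fibre markers 1 of 5 fell, of the smooth muscle and pericyte markers 1 of 5 rose, and of the nerve and Schwann cell markers 1 of 3 rose, against 42.6% of all genes called in either direction. By limma 0 of 5 fibro-adipogenic, 0 of 4 macrophage, 0 of 3 tendon and 0 of 2 satellite cell markers were called, and the numbers at an unadjusted p under 0.05 were 0, 0, 0 and 1. The 1 lymphocyte marker in the table, Cd79a, was at 0.06 to 0.28 FPKM. In bulk tissue, fewer cells of a type and less RNA per cell cannot be told apart, and the part of these markers in the results above was not tested.

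The time difference followed transcript length. Among the shortest of 10 equal bins of genes, with 189 to 759 nt, the median log2 difference was -0.10, 15.83% were called higher and 26.31% lower. Among the longest bin, from 4827 nt, the median was 0.42, 60.08% were higher and 1.714% lower. Spearman's rho between length and difference across 9912 genes was 0.377, and 0.29 in WT, as a description, since genes share libraries and are not independent replicates. It was 0.383 after median-of-ratios scaling and 0.37 over 4187 genes with at least 10 FPKM. Across the times, the 9 pairs of KO libraries gave 0.303 to 0.363, and the 6 pairs within a time gave sizes of 0.004 to 0.057. The trend was thus seen between the times and was near 0 within them. Removing it from each library brought rho to 0.003, and 1758 genes were then called higher and 1841 lower.

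**Figure D5:**
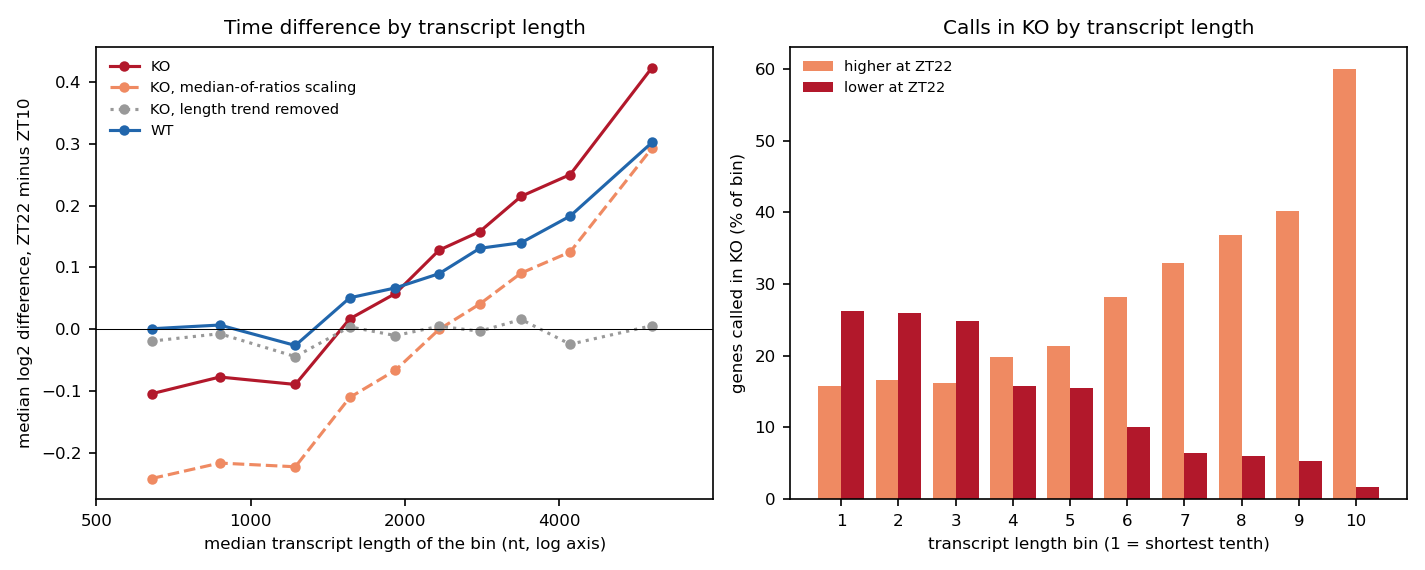
Left, median log2 difference ZT22 minus ZT10 in 10 bins of transcript length (nt, log axis), for KO under 3 scalings and for WT; right, percent of each bin called higher or lower in KO. The KO median climbs from -0.10 in the shortest bin to 0.42 in the longest and is flat once the trend is removed.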

How the data were processed

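RNA of tibialis anterior muscle was sequenced in 12 libraries, 3 for each label (WT, KO) and time. Per the submitters' processing notes, the tools were HISAT2, HTSeq and DESeq2 1.8.2 and the builds GRCm38 and mm10, with no role or order. The sources used here state neither annotation nor strandedness of counting. The authors deposited FPKM values (fragments per kilobase of transcript per 1000000 fragments), a unit read from the values, since the header names none: multiplied by length in kb they summed to 823135 to 896449 per library. Of 14583 deposited entries 82 were empty and 230 were exact repeats, and for Plin2, with 2 differing entries, the higher was kept. Of 14270 genes, 14081 matched GENCODE M21 by symbol, and 14100 with synonyms. The authors' fold change, p and q columns were not used.

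Genes averaging 1 FPKM or more over 12 libraries entered limma 3.58.1 (R 4.3.3) as log2(FPKM + 1), with 1 mean per group, an intensity trend and 8 residual degrees of freedom. The same fit was repeated after median-of-ratios scaling (factors 0.903 to 0.958 for KO ZT10 and 1.03 to 1.06 for KO ZT22) and after a lowess trend (span 0.3) on log transcript length, the median over a gene's protein-coding transcripts, was subtracted from each library. The fit was tested on simulated data with independent noise per gene and no length trend or shift between the times. That test therefore says nothing about how such trends or shifts affect the calls. With 3 libraries against 3, an exact permutation test of a single gene cannot go below p = 0.1. Named genes are the REV-ERBs and all clock list genes, the 12 largest rises and falls among called genes whose groups do not overlap, up to 3 called genes of smallest adjusted p per list, and genes whose time difference differed between labels. Predicted genes were left out of the second and last of these. Other genes named (Fkbp5, Fbxo32, Hk2, Slc2a4, Myh4, Zc3h11a, Rpl31, Rpl37, the cell markers, the genes that separate the times in all libraries and the untested ATF4 targets) were chosen after their values were seen. The comparison and the 53 gene lists were chosen with earlier results of these data known. Some named genes are not reported here. Exons of 28 of the 149 named genes overlap another gene of the table. Same-numbered KO libraries of the 2 times deviated from their group means with correlations of 0.065, 0.0565 and 0.0818. Pairs with different numbers gave -0.084 to 0.0428, below all of these. The sources used here describe replicates only as separate samples, so the numbers were not taken to pair samples. Tables and figures were made in Python 3.11.15 with pandas 2.3.3, numpy 2.4.6 and matplotlib 3.10.9.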

Additional observations from a re-analysis of the deposited data

Results flagged for a closer look

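The change from ZT10 to ZT22 differed between libraries labelled KO and WT for 4 genes, by limma's test of the difference itself. For Arntl the KO difference minus the WT difference was -1.64 ± 0.15 on the log2 scale (adjusted p = 0.0012), with all 3 ZT22 libraries above all 3 ZT10 libraries in both labels. For Dbp it was 2.18 ± 0.24 (adjusted p = 0.00399), with the times apart in WT and overlapping in KO. For Slc38a10 it was -1.1 ± 0.15 (adjusted p = 0.023) and for Gpcpd1 1.15 ± 0.16 (adjusted p = 0.023), and in both genes the KO and WT differences had opposite signs. Groups of 3 libraries were not searched for single outlying samples.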

How the results depend on the processing

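The total of 4239 calls stayed within 1.5 times under every alternative: 4225 with a pseudocount of 0.1, 4260 without the filter, 3547 with only the 6 KO libraries, and 3328 to 4080 with 1 KO library left out. The replicate number as a block, in a design whose numbers were not shown to pair samples, gave 4195 calls and 5 genes whose time difference differed between labels. The direction counts moved: higher genes numbered 1889 after median-of-ratios scaling, 1758 with the length trend removed and 1763 with both, and lower genes 2303 after median-of-ratios scaling. Genes whose time difference differed between labels numbered 8 with the length trend removed, 7 with both, and 2 to 77 with 1 library left out, with 77 without WT ZT10 replicate 1, 68 without KO ZT10 replicate 1, 47 without KO ZT10 replicate 3 and 18 without WT ZT22 replicate 3. The cause was not tested. Signs turned for Per3 (-0.14 with the length trend removed, -0.15 with both), Cry2 (-0.12, -0.15 and -0.18 under the 3 rescalings), Bhlhe41 (-0.053 and -0.071), Coq10b (-0.031), Pnpla2 (-0.025), Slc38a9 (-0.18 and -0.16) and Col4a2 (-0.005 and -0.027). With 1 KO library left out, Per1 ranged from -0.51 to 0.14, Cry2 from -0.094 to 0.13 and Coq10b from -0.06 to 0.38. Leaving out 1 KO library also ended the KO calls of Maff, Slc38a9, Chrne, Psmb8, Stat2, Irf9, Col4a2 and Cdk4, with adjusted p up to 0.103. Without counts, depth sets no interval on single values, and calls near 1 FPKM rest on few fragments.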
